A study of Mus musculus with 4 samples.

Results

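Krüppel-like factors are DNA-binding proteins of the nucleus. In the 4 one-color arrays of this series they were read by 12 probes of 10 genes, namely *Klf2*, *Klf3*, *Klf4*, *Klf5*, *Klf6*, *Klf7*, *Klf9*, *Klf10*, *Klf11* and *Klf13*. The probes were chosen by the gene name that the array files give, without regard to their values, out of 39427 probes with 30174 gene names. *Klf13* had 3 probes and every other gene had 1, and each of the 12 probes was printed as 1 spot. The cells were NIH-3T3:Per2-Luc, a line of mouse fibroblasts that carries a luciferase gene under the *Per2* promoter. The control (0 mM H2O2) received only fresh medium and is labeled 4 h. The other arrays carried RNA from 4 h, from 20 h and from 32 h past a cOS-pulse, a critical oxidative stress given as 5 mM H2O2 for 10 min. Each condition was 1 array, so every time point was set against the same control array, the values have no spread between cultures, and no statistical test was run. There was no control array at 20 h or 32 h, so at these times the pulse cannot be told apart from time in culture. The study took 4 h for the early response to the pulse and 20 h and 32 h for circadian change.

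All Krüppel-like factors end in C2H2 zinc fingers that bind CACCC boxes and GC boxes, and the rest of the protein decides which cofactors they bring to a gene. *Klf2*, *Klf4*, *Klf5*, *Klf6* and *Klf7* belong to the branch best known for activation through acetyltransferases, although some of them also repress. *Klf3* binds the corepressor CtBP, and *Klf9*, *Klf10*, *Klf11* and *Klf13* bind the corepressor Sin3. Many of the genes are induced quickly by serum, shear stress, hormones or TGF-beta, and *Klf9* and *Klf10* are known for rhythmic expression in several tissues.

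The shared zinc fingers can be seen in the probes themselves. The probe of *Klf5* and 1 of the 3 probes of *Klf13* hold an open reading frame with the codons for the leucine and both histidines of a C2H2 finger, so both lie in coding sequence. They are shown because they lie over the same stretch of the finger region and because the values of these genes at 4 h lay on opposite sides of the control. Capitals mark the bases that match in their best ungapped overlap, 29 of 40 (72.5%).

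Klf5: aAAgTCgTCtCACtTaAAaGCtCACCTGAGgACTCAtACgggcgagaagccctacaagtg

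Klf13: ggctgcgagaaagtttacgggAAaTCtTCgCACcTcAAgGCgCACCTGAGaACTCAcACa

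The array annotation places the *Klf5* probe at chr14:99702656-99712388 on the plus strand of mm9. This span of 9733 bases for a probe of 60 bases lies across an intron. The *Klf13* zinc finger probe is placed at chr7:71082854-71082913 on the minus strand. A further *Klf13* probe, designed on an Ensembl transcript, spans chr7:71036675-71069606 on the minus strand. The last, designed on the cDNA BC030682, is placed at chr7:71032482-71032541 on the plus strand, opposite to the other *Klf13* probes, and its orientation on the transcript was not settled here. The remaining probes lie at chr8:74845137-74845196 (*Klf2*), chr5:65221309-65221368 (*Klf3*), chr4:55540167-55540226 (*Klf4*), chr13:5869371-5869430 (*Klf6*), chr1:64082265-64082324 (*Klf7*), chr19:23240410-23240469 (*Klf9*), chr15:38224255-38224314 (*Klf10*) and chr12:25347324-25347383 (*Klf11*). An exon and UTR annotation of mm9 was not used here.

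The levels below are log2 signals minus the 75th percentile of the array, so that a level of 0 equals that percentile. A ratio was measured where the probe was well above background on both arrays, which held for 10 of the 12 probes in every comparison. The error after ± comes from the scanner software and covers the spot alone, not differences between cultures. Among 228 probes of other genes that were printed as 10 spots each and measured at 4 h and in the control, the log2 ratio of single spots had a median SD of 0.055. Well above background were 53.4% of all probes in the control and 59.1%, 55.2% and 52.7% on the later arrays in order of time, and no spot was saturated. At 4 h the 10 measured probes lay from -1.14 to 2.11 with a median log2 ratio over the control of 0.11, beside a median of 0.17 over all 20391 measured probes. The median size of the ratio, without its sign, was 0.78 for the Krüppel-like factors and 0.45 for all probes. Thus the family had no common direction at 4 h, while its members lay further from the control than the typical probe.

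*Klf4*, a factor of growth arrest and of pluripotency, had the highest ratio of the family at 4 h. Its level was 1.77 in the control, 3.88 at 4 h, 0.996 at 20 h and 0.65 at 32 h, each ± 0.14. The 4 h array alone was above the control, and the 20 h and 32 h arrays were below it. The log2 ratio over the control was 2.11 ± 0.20 at 4 h, or 4.30-fold higher, and about 1% of the measured probes had a higher ratio. It was -0.78 ± 0.20 at 20 h and -1.13 ± 0.20 at 32 h, the last 2.18-fold lower than the control. Under 5 other ways of scaling the arrays, the 4 h ratio lay between 1.71 and 1.98, and the 32 h ratio between -1.14 and -0.95, which falls short of 2-fold with the spike-in controls and without scaling.

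*Klf5*, a factor of proliferating epithelium and smooth muscle, was ordered like *Klf4*. Its level was -1.22 in the control, 0.13 at 4 h, -1.98 at 20 h and -1.997 at 32 h, with spot errors of at most 0.15. It was 2.55-fold higher than the control at 4 h, with a log2 ratio of 1.35 ± 0.21, and 3.84% of the measured probes had a higher ratio. The ratios at 20 h (-0.76 ± 0.21) and 32 h (-0.78 ± 0.21) did not differ from each other by more than the spot error. The 4 h ratio was under 2-fold when the arrays were scaled by the median or the spike-in controls, and 0.95 at its lowest. At 4 h the ratio of *Klf4* exceeded that of *Klf5* by 0.76 ± 0.29, a difference in which the scaling cancels for all but quantile normalization.

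**Figure D1:**
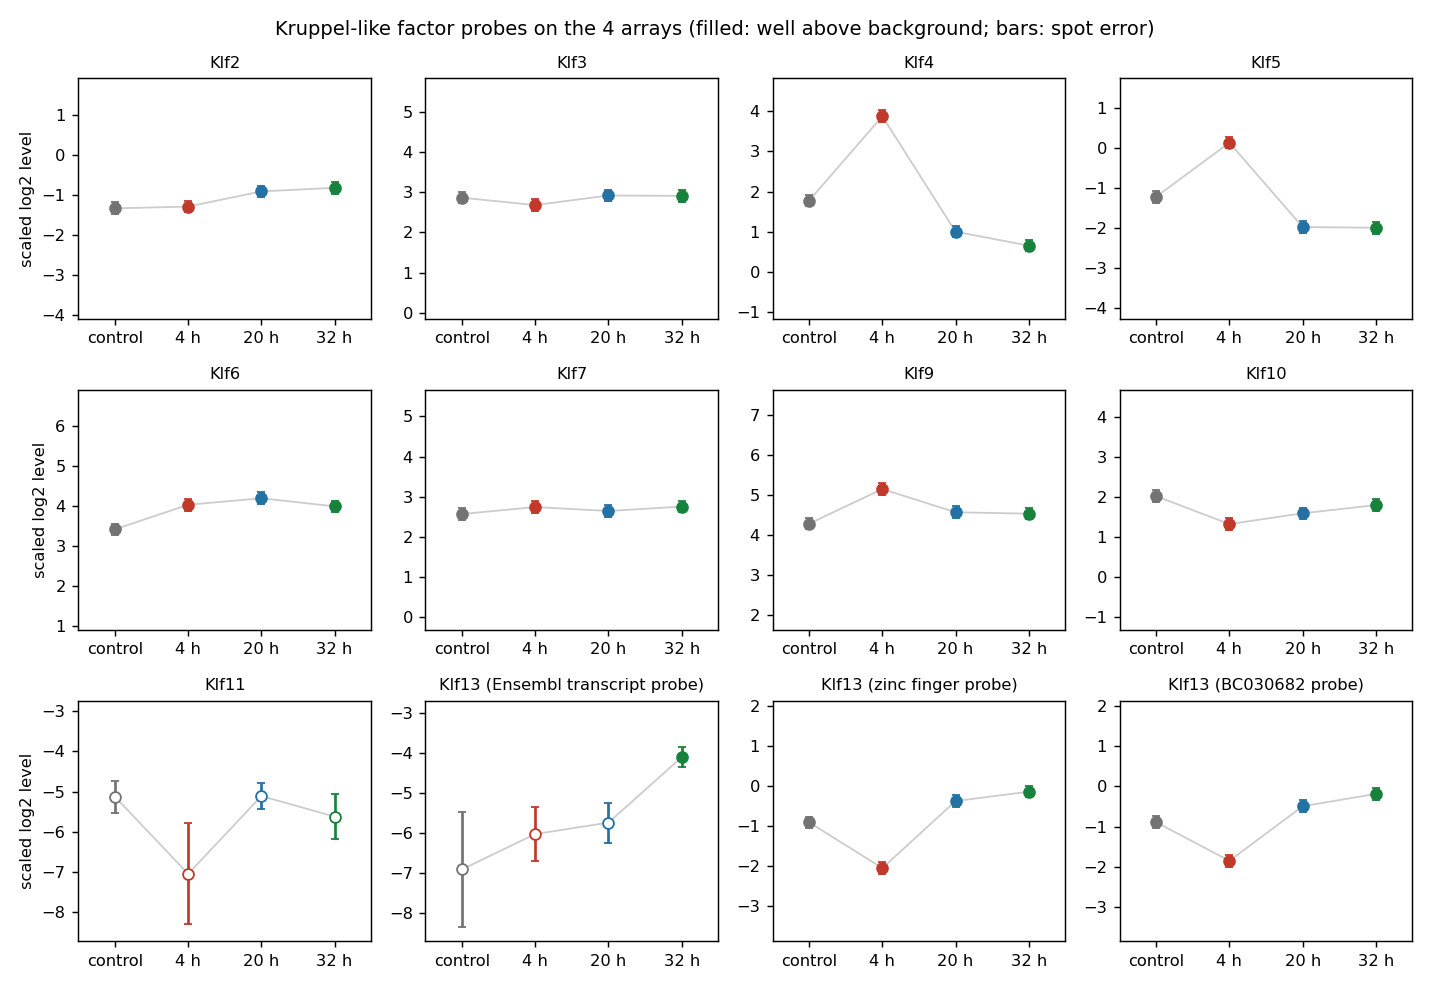
Scaled log2 level of each of the 12 Krüppel-like factor probes (vertical axis, log2 signal minus the 75th percentile of the array, with each panel on its own range) by condition, the control and then hours after cOS-pulse (horizontal axis). Points are single arrays, filled where the probe was well above background and open where it was not, and bars are the spot error. *Klf4* and *Klf5* peak at 4 h with levels of 3.88 and 0.13, and the zinc finger and BC030682 probes of *Klf13* have their lowest level there, -2.06 and -1.86.

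*Klf6*, an early response gene of injured tissue, was above the control at every time. Its level was 3.42 in the control, 4.03 at 4 h, 4.19 at 20 h and 3.99 at 32 h, each ± 0.14. The 3 arrays after the pulse did not differ between neighbors in this order by more than the spot error, and the control lay below all of them. The log2 ratios were 0.61 ± 0.20, 0.77 ± 0.20 and 0.57 ± 0.20, all short of 2-fold. At 20 h 1.58% of the measured probes had a higher ratio. Without scaling, the 20 h ratio reached 1.11.

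*Klf2*, an endothelial and T cell factor that is switched on by flow, was higher only at the later times. Its level was -1.33 in the control, -1.29 at 4 h, -0.91 at 20 h and -0.82 at 32 h, with errors of 0.15. The control and the 4 h array could not be told apart within the spot error, and neither could 20 h and 32 h. The log2 ratio was 0.045 ± 0.21 at 4 h, 0.42 ± 0.21 at 20 h and 0.51 ± 0.21 at 32 h. The sign at 4 h turned under 4 of the 5 other scalings, down to -0.35.

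*Klf7*, a neuronal and preadipocyte factor, and *Klf3*, the CtBP-binding repressor, varied least. The level of *Klf7* was 2.56 in the control, 2.74 at 4 h, 2.64 at 20 h and 2.75 at 32 h. Its highest ratio over the control was 0.19 ± 0.20. The level of *Klf3* was 2.87 in the control, 2.68 at 4 h, 2.92 at 20 h and 2.91 at 32 h. Its ratio at 4 h was -0.18 ± 0.20, and its ratios at the later times were 0.055 ± 0.20 and 0.046 ± 0.20. None of these ratios over the control exceeded the spot error of about 0.20 in the main setting, although *Klf3* spanned 0.24 from its 4 h to its 20 h level. Under the 5 other scalings the 4 h ratio of *Klf3* lay between -0.58 and -0.31, beyond that error. Without scaling the 20 h ratios reached 0.39 for *Klf3* and 0.41 for *Klf7*. The sign of *Klf7* at 4 h turned with median, spike-in and no scaling.

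*Klf9*, a target of the glucocorticoid receptor, was the only measured Sin3-binding member above the control at 4 h. Its level was 4.29 in the control, 5.15 at 4 h, 4.57 at 20 h and 4.53 at 32 h, each ± 0.14. The 4 h array was the highest, 20 h and 32 h did not differ beyond the spot error, and the control was the lowest. The log2 ratio was 0.86 ± 0.20 at 4 h (1.82-fold higher), 0.29 ± 0.20 at 20 h and 0.25 ± 0.20 at 32 h. Other scalings gave 0.47 to 0.74 at 4 h.

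*Klf10*, known as the TGF-beta-inducible early gene, lay below the control at every time. Its level was 2.02 in the control, 1.32 at 4 h, 1.59 at 20 h and 1.80 at 32 h, each ± 0.14. The 4 h array was the lowest, and the difference from the control became smaller at each later time. The log2 ratio was -0.70 ± 0.20 at 4 h (1.62-fold lower), -0.43 ± 0.20 at 20 h and -0.22 ± 0.20 at 32 h. Under the other scalings the 4 h ratio lay between -1.10 and -0.74, so that it passed 2-fold with the median and the spike-in controls. The 32 h ratio was at the edge of the spot error, and within it with median (-0.19), spike-in (-0.071) and no scaling (-0.044).

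*Klf13*, a factor of T cells and heart, had the lowest ratio of the family at 4 h. The level of the zinc finger probe was -0.91 in the control, -2.06 at 4 h, -0.38 at 20 h and -0.15 at 32 h, with errors of at most 0.15. The 4 h array lay below the control, and the later arrays lay above it, 32 h the highest. The log2 ratio was -1.14 ± 0.21 at 4 h (2.21-fold lower), 0.53 ± 0.21 at 20 h and 0.77 ± 0.21 at 32 h. At 4 h 5.90% of the measured probes had a lower ratio, and at 32 h 2.18% had a higher ratio.

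The BC030682 probe of *Klf13* had a level of -0.89 in the control, -1.86 at 4 h, -0.49 at 20 h and -0.19 at 32 h, in the same order. Its ratios were -0.96 ± 0.21, 0.40 ± 0.21 and 0.71 ± 0.21, and at 4 h it differed from the zinc finger probe by less than the error of the difference (-0.18 ± 0.30). With normexp background correction the 4 h ratios were -0.89 for the zinc finger probe and -0.75 for the BC030682 probe, while the other scalings gave -1.54 to -1.23 and -1.36 to -1.03. The Ensembl transcript probe was well above background at 32 h alone, with a level of -4.11 there, -6.91 in the control, -6.03 at 4 h and -5.74 at 20 h. Its bounds, taken over the dimmest detected probe of the other array, put it at least 1.57-fold above the control at 32 h, and at least 2.002-fold above its 20 h signal.

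*Klf11*, a regulator of insulin transcription, did not stand well above background in any condition, with levels of -5.13, -7.06, -5.11 and -5.63, and no ratio was taken.

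At 4 h, 2 of the 10 Krüppel-like factor probes with a ratio were at least 2-fold higher (*Klf4* and *Klf5*), where 11.2% of all 23812 probes with a ratio were, and 1 was at least 2-fold lower (the zinc finger probe of *Klf13*), where 8.18% were. These shares change with the scaling, and the 2-fold probes of the whole array that were higher made up 57.8% in the main setting and 25.8% to 46.7% under the 5 others. Apart from size, 4 of the 10 measured probes were above and 3 below the control by more than the spot error. The share of all probes beyond their own spot error was not counted, so these counts set the family apart from nothing. The median size over all measured probes, 0.45, was itself larger than the spot error of these ratios. By cofactor branch, all 5 activator members had a ratio above 0, as had 60.2% of all measured probes, with a median of 0.61, and of the Sin3-binding members 1 of 4 measured probes had a ratio above 0, with a median of -0.83. *Klf2* and *Klf7* of the activator branch lay within the spot error and changed sign with the scaling, so that count is not firm. Of the 4 Sin3-binding probes 2 were of *Klf13*, so the medians of that branch count this gene by both. At the later times the order of the medians turned, with 0.076 for the activator and 0.34 for the Sin3-binding members at 20 h, and 0.19 and 0.48 at 32 h. At these times *Klf9* (0.29 and 0.25) and *Klf10* (-0.43 and -0.22) lay on opposite sides of the control, and both *Klf13* probes were above it.

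The members were also set against each other within arrays. The log2 ratios at 4 h of *Klf4* and *Klf10* differed by 2.80 ± 0.29, those of *Klf4* and the *Klf13* zinc finger probe by 3.25 ± 0.29, and those of *Klf5* and the same *Klf13* probe, which share the bases shown above, by 2.49 ± 0.29. *Klf9* and *Klf10*, both Sin3-binding, differed by 1.56 ± 0.29. Each of these differences was taken within arrays and was more than 5 times its spot error, which leaves out differences between cultures. These pairs set high members against low ones, so large differences follow from the choice. Smaller were those of *Klf6* and *Klf3* (0.80 ± 0.29) and of *Klf4* and *Klf5* (0.76 ± 0.29).

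**Figure D2:**
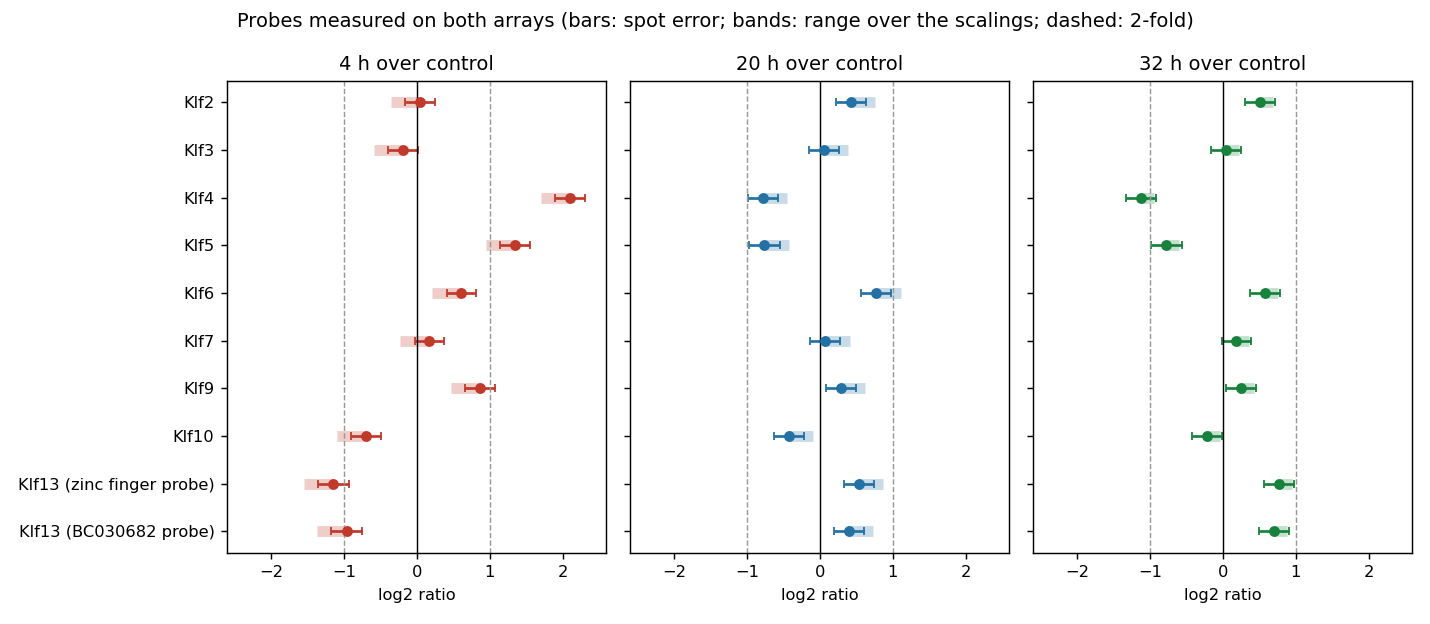
Log2 ratio over the control (horizontal axis) of the 10 Krüppel-like factor probes measured on both arrays, at 4 h, 20 h and 32 h after cOS-pulse. Points are single ratios, bars the spot error, pale bands the range over 5 other scalings and dashed lines 2-fold; *Klf4* lies at 2.11 at 4 h and at -1.13 at 32 h, and the zinc finger probe of *Klf13* at -1.14 and 0.77.

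At 20 h, none of the 10 probes was 2-fold higher, where 1.37% of all 21989 probes with a ratio were, and none was 2-fold lower, where 3.35% were. The median over the Krüppel-like factors was 0.18, beside -0.0035 over all measured probes. *Klf6*, *Klf13* (both measured probes), *Klf2* and *Klf9* were above the control by more than the spot error, *Klf4*, *Klf5* and *Klf10* were below it, and *Klf3* and *Klf7* were within it. All directions beyond the spot error at 20 h held under the 5 other scalings, where the ratio of *Klf10* came as close to the control as -0.094.

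At 32 h, none of the 11 probes with a ratio or bound was 2-fold higher, where 2.06% of all 21843 were, and 1 was 2-fold lower (*Klf4*), where 2.59% were. The median was 0.22, beside -0.0065 over all measured probes. The same probes lay above, below and within the spot error as at 20 h, and at both times 5 were above and 3 below. Of these, *Klf10* at 32 h was within the spot error with median, spike-in and no scaling. How many of all probes passed their own spot error was not counted at these times either.

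**Figure D3:**
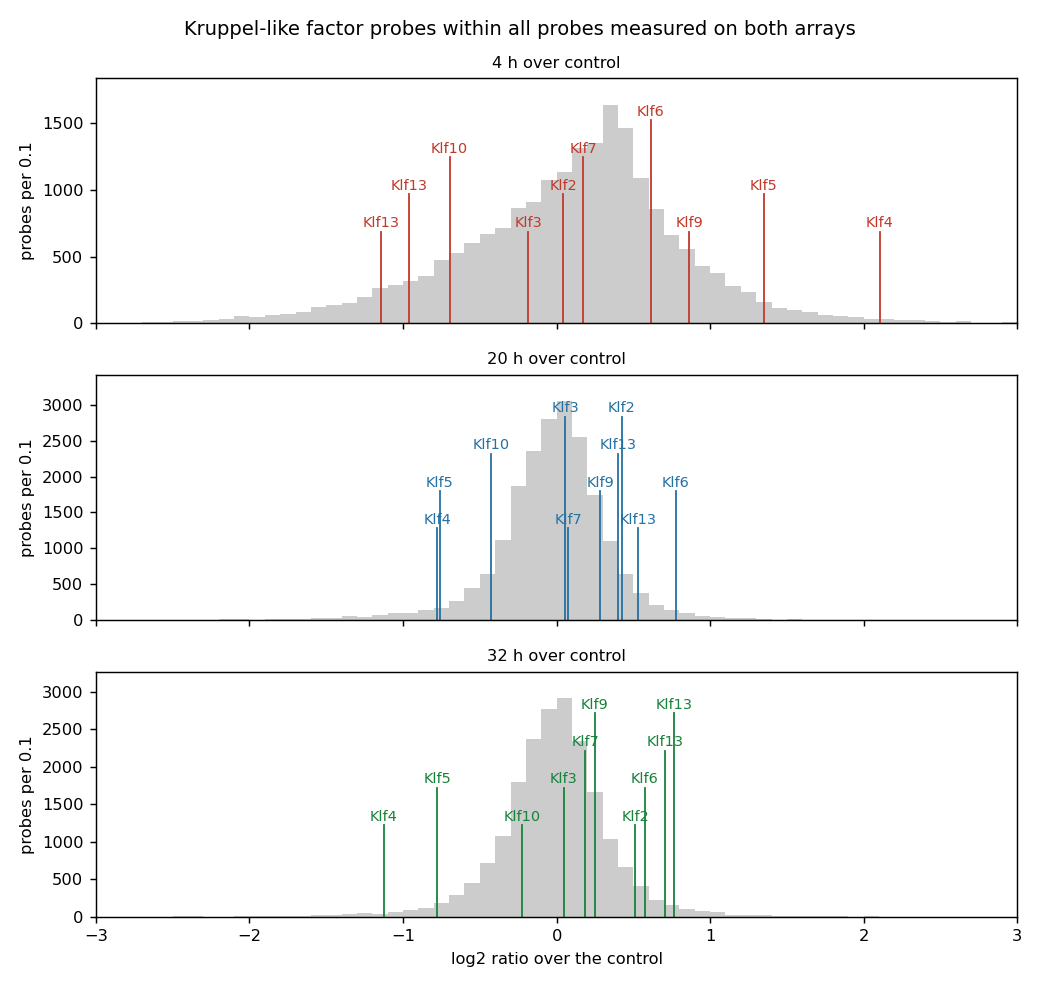
Distribution of the log2 ratio over the control for all probes measured on both arrays (gray, probes per bin of 0.1 on the vertical axis), with a colored line for each measured Krüppel-like factor probe. Line heights only separate the names. At 4 h the members spread from -1.14 to 2.11, and at 20 h and 32 h *Klf4* and *Klf5* lie in the lower tail while *Klf6* and *Klf13* lie in the upper tail.

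Between the arrays at 20 h and 32 h, which the study used for circadian change, the ratios of this family were small but larger than those of the typical probe. Their median size, without the sign, was 0.16 for the measured members and 0.096 for all 20247 measured probes. None of the 11 probes with a ratio or bound was 2-fold higher at 20 h, where 0.902% of all 21741 were, and 1 was 2-fold lower, where 1.93% were. This was the Ensembl transcript probe of *Klf13*, by its bound of at least 2.002-fold (-1.002 on the log2 scale), which fell short of 2-fold with median (-0.93), quantile (-0.86), spike-in (-0.96) and no scaling (-0.85) and with normexp (-0.64). *Klf4* was higher at 20 h than at 32 h with a log2 ratio of 0.35 ± 0.20, and 3.11% of the measured probes had a higher ratio. Lower at 20 h were *Klf10* (-0.20 ± 0.20, at the edge of the error) and *Klf13*, with -0.23 ± 0.20 by the zinc finger probe and -0.31 ± 0.21 by the BC030682 probe. A ratio lower than that of the BC030682 probe was found in 5.94% of the measured probes. The difference of the zinc finger probe was within the spot error with median (-0.16), spike-in (-0.19) and no scaling (-0.081). The other 6 measured probes, *Klf9* (0.037 ± 0.20) among them, were within the spot error. A single array per time gives no rhythm.

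Upstream sequence was compared for what the members share. A RefSeq window (GRCm38.p6) of 250 bases before the start of the gene was matched for 8 of the 10 members. It was searched on both strands for the CACCC box (CACCC), the GC box (GGGCGG), the E-box of the clock factors (CACGTG), a part of the cAMP response element (TGACG), the antioxidant response element core (TGACNNNGC), paired heat shock element units (GAANNTTC), the CCAAT box (CCAAT) and the ROR element core (AGGTCA). The CACCC box and the GC box can overlap. The windows of *Klf4*, *Klf9* and *Klf13* are shown because they hold the highest ratio, the highest ratio among Sin3-binding members and the lowest ratio of the family at 4 h. Capitals mark the CACCC box, the GC box, the E-box and the cAMP response element part on either strand.

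Klf4, chr4:55532476-55532725, minus strand: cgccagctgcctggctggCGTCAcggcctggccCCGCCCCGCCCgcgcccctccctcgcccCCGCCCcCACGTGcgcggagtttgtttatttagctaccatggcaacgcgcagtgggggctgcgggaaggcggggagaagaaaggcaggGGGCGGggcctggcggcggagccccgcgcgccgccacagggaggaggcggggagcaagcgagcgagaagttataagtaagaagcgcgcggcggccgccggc

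Klf9, chr19:23140976-23141225, plus strand: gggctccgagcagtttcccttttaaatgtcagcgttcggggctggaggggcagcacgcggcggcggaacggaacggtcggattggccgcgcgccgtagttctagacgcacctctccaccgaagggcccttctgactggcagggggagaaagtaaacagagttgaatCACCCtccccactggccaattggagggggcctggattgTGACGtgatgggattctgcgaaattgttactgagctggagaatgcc

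Klf13, chr7:63938916-63939165, minus strand: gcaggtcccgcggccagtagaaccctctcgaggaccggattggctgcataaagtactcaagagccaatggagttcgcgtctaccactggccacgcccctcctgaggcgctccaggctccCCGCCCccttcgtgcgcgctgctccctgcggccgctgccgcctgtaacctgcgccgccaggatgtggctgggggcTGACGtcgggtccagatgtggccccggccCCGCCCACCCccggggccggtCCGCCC

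A GC box, itself a binding site of this family and of the Sp factors, was present in 7 of the 8 windows (all but *Klf9*), against 32.7% of 32851 windows of the same length. A CACCC box was in 5 of 8, against 52.0%. The E-box CACGTG was in 3 of 8 (*Klf4*, *Klf6* and *Klf11*), against 6.02%, and TGACG in 4 of 8 (*Klf2*, *Klf4*, *Klf9* and *Klf13*), against 17.8%. TGACNNNGC was in 2 of 8 (*Klf3* and *Klf6*), against 10.2%, and CCAAT in 4 of 8, against 33.8%. The heat shock element units were in none, against 6.69%, and the ROR element core in none, against 14.0%. *Klf4* and *Klf13*, which lay on opposite sides of the control at 4 h, both held GC boxes (4 and 3) and TGACG (1 each). These are matches of letters in GC-rich sequence (74% G and C in the *Klf4* window, 59.6% in that of *Klf9*), not measured sites, and 8 windows are few.

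The other genes of the pathway were taken from lists by function. Of 16 further Klf and Sp genes on 19 probes, 5 to 9 probes were well above background per array, and 8 had a ratio at 4 h. Their median at 4 h was 0.013, below 0 under all 5 other scalings, and no probe was 2-fold higher while 1 was lower by its bound (*Sp8*). *Sp1*, which binds the same GC boxes, had 0.048 at 4 h. *Klf16*, the only further Klf gene with a ratio at 4 h, had 0.74 there, 0.035 at 20 h and 0.51 at 32 h. Klf1, Klf8, Klf12, Klf14, Klf15 and Klf17 had no ratio at 4 h. *Sp8* was also lower at 20 h, with -2.06 ± 0.35, from a level of -2.92 in the control to -4.97.

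The 13 cofactor genes, among them the CtBP and Sin3 corepressors and the acetyltransferases p300 and CBP, had 21 probes with a ratio at 4 h. None was past 2-fold in either direction in any comparison, beside 11.2% higher and 8.18% lower over all probes at 4 h, and at most 3.35% in either direction in the other comparisons. Up to 2 were lower at 4 h under the other scalings. The measured probes at 4 h lay from -0.80 (1 of *Ncor1*) to 0.51 (*Ep300*, the gene of p300). The median of the list at 4 h was 0.015, and it turned below 0 under all 5 other scalings. It was 0.071 at 20 h and 0.081 at 32 h.

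Of the 14 genes that act upstream of the family or in its turnover, 24 probes had a ratio at 4 h, 3 of them 2-fold higher and none lower, beside 11.2% higher and 8.18% lower over all probes, and their median was 0.23. With 24 probes, 3 is near the share over all probes. The median turned below 0 under 3 of the 5 other scalings, and the number higher ranged from 1 to 3. The 3 were probes of *Mef2d* and *Mef2a*, factors through which ERK5 signaling turns on *Klf2* and *Klf4*. *Mef2d* had 1.79 ± 0.25 and 1.28 ± 0.22 with these probes and 0.42 with another. *Mef2a* had 1.20 ± 0.27, with 0.71 and 0.20 for its other probes. *Nr3c1*, the glucocorticoid receptor that induces *Klf9*, had 0.50 at 4 h, 1.13 ± 0.21 at 20 h and 1.31 ± 0.21 at 32 h with 1 probe, and -0.099, 0.32 and 0.36 with the other. At 4 h the *Nr3c1* probes differed in sign. At 20 h and 32 h it was 1 of 2 probes of this list past 2-fold, beside 1.37% and 2.06% higher over all probes, the other being a probe of *Tgfbr1*, a TGF-beta receptor, by its bounds. *Klf2*, downstream of the same ERK5 pathway as *Klf4*, had 0.045 at 4 h.

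Of 14 genes reported elsewhere as targets of the family, 19 probes had a ratio at 4 h, 3 higher and 5 lower past 2-fold, beside 11.2% and 8.18% over all probes, with a median of -0.39. At 20 h the counts were 2 and 4 of 20 probes, beside 1.37% and 3.35%, with a median of -0.29. At 32 h they were 2 and 4 of 19, beside 2.06% and 2.59%, with a median of -0.43. The list has several probes for some genes, *Cdkn1a* and *Ccnb1* among them, which are not independent. All probes past 2-fold higher, at 4 h and at both later times, were of *Cdkn1a* alone. The lower ones at 4 h were the *Ccnb1* probes, *Acta2* and *Ccnd1*. At 20 h and 32 h they were *Acta2*, *Plau*, *Smad7* and *Ccnd1*. The counts thus stand for fewer genes than probes. *Cdkn1a*, the p21 inhibitor of the cell cycle that *Klf4* and *Klf6* activate, had a level of 0.40 in the control, 3.97 at 4 h, 1.70 at 20 h and 1.72 at 32 h. Its log2 ratio was 3.57 ± 0.065 at 4 h, 1.30 ± 0.066 at 20 h and 1.32 ± 0.069 at 32 h, so that by this probe it was above the control at the times when *Klf4* was below it. A further *Cdkn1a* probe was not well above background in the control, with bounds of at least 2.55, 1.29 and 1.38 on the log2 scale at 4 h, 20 h and 32 h. The last had 1.97 at 4 h but -0.63 at 20 h and -0.49 at 32 h, near background at levels of -4.54 and -4.41, so that 2 of the 3 probes lay above the control at the later times. *Ccnb1*, the mitotic cyclin B1 that *Klf4* represses, had -2.80 ± 0.21 and -2.61 ± 0.35 at 4 h. These 2 probes had -0.070 and -0.11 at 20 h and -0.46 and -0.77 at 32 h, while *Klf4* was below the control at both times. A further *Ccnb1* probe had a bound of -2.46 at 4 h, -0.086 at 20 h and -0.58 at 32 h.

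*Acta2*, the smooth muscle actin, had -2.80 ± 0.069 at 4 h, -3.56 ± 0.077 at 20 h and -3.11 ± 0.077 at 32 h. *Plau*, the urokinase gene bound by *Klf6*, had 0.69 at 4 h, -1.60 ± 0.25 at 20 h and -1.74 ± 0.29 at 32 h, while *Klf6* was above the control at all 3 times. *Smad7*, which *Klf10* represses, had 0.13 at 4 h, where *Klf10* was lowest, -1.33 ± 0.20 at 20 h and -1.23 at 32 h. *Ccnd1*, the cyclin D1 that *Klf5* activates, had -1.49 at 4 h, where *Klf5* was above the control, -1.17 at 20 h and -1.30 ± 0.20 at 32 h. These genes have many other regulators, and no binding was measured here.

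**Figure D4:**
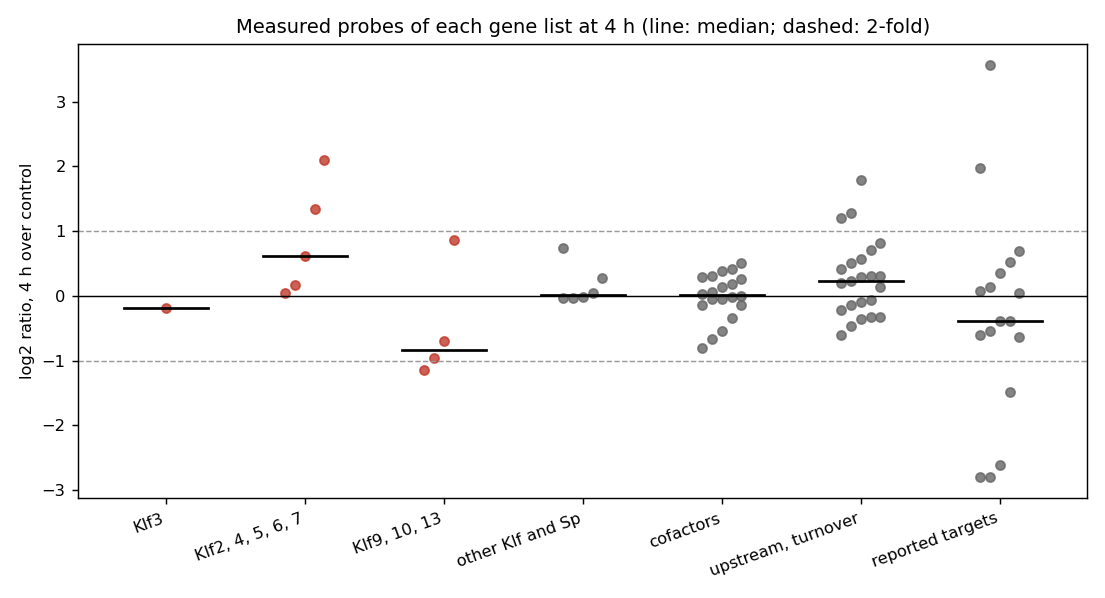
Log2 ratio at 4 h over the control (vertical axis) of the measured probes of the Krüppel-like factors by cofactor branch (red) and of the lists of related genes (gray), with the list median as a bar and dashed lines at 2-fold. Points are probes on 1 array pair. The activator branch has a median of 0.61 and the Sin3-binding branch of -0.83, where 2 of the 4 points are *Klf13*. The cofactors have a median of 0.015 and lie from -0.80 to 0.51. *Cdkn1a* stands highest among the reported targets at 3.57.

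Markers of cell types were read because several members are known from endothelium, epithelium and leukocytes. All 12 probes of 11 fibroblast genes were well above background on every array, with a summed scaled level of 10.23 to 10.49. Of 6 endothelial probes 2 to 3 were well above background, with a summed level of 1.70 to 2.11, and *Tek* and *Emcn* were on none of the arrays. Of 9 epithelial probes 2 to 3 were (-0.50 to 0.58), and *Epcam*, *Cdh1*, *Krt18* and *Cldn4* were on none. Of 9 leukocyte probes 3 to 4 were (0.80 to 1.81), and *Ptprc*, *Emr1* and *Lyz2* were on none.

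Single markers were higher than in the control at 4 h, as *Klf4* and *Klf5* were. These were *Krt8* (1.17 ± 0.21 and 1.10 ± 0.30), *Cdh5* (1.87 ± 0.30) and *Cd68* (2.08 ± 0.21), while 4 of the 12 fibroblast probes had a ratio above 0. These were *Dcn* (level 8.53 in the control and 8.84 at 4 h), *Lum* (6.32 and 6.74) and both probes of *S100a4*, and 2 were past 2-fold lower, *Pdgfra* (-1.55 ± 0.065) and *Pdgfrb* (-1.35 ± 0.20). At 20 h 3 fibroblast probes were past 2-fold lower, those of *Thy1* (-1.39 ± 0.20), *Col1a1* (-1.06 ± 0.20) and *Col3a1* (-1.02 ± 0.20), and so was that of the neuronal gene *Snap25* (-1.002 ± 0.20), all but *Thy1* short of 2-fold under at least 1 other scaling. Of the 4 neuronal probes with a ratio at 20 h, 1 was past 2-fold lower and 1 higher. The higher one was a probe of *Rbfox3*, by its bound, with a level of -7.08 in the control, -2.35 at 20 h and -7.00 at 32 h. The other *Rbfox3* probes were not well above background on any array, with levels of -7.11 and -7.21 at 20 h. The level of *Tubb3* was -2.21 in the control and -1.52 at 20 h. Of 6 neuronal probes 2 to 3 were well above background per array (3.03 to 4.50), and of 6 muscle probes 2, both of *Myh3*, were so at 4 h and none on the other arrays (-4.39 to -1.54). The arrays were of a cultured fibroblast line, so these markers are read as transcripts and not as amounts of other cell types. Whether their changes relate to those of the Krüppel-like factors was not tested. In bulk RNA of a culture, a change in some cells and a change in all cells cannot be told apart.

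The genes whose 3 ratios over the control were most like those of *Klf4* and of the *Klf13* zinc finger probe were sought among 17296 probes well above background on all arrays, by the root mean square difference in log2. For *Klf4* these were *Dusp10*, a phosphatase of stress kinases, at 0.15 (ratios of 2.08, -0.59 and -0.93), *Fabp4*, a fatty acid carrier, at 0.23 (2.14, -1.04 and -0.83), and *Il1rl1*, the receptor of interleukin-33, at 0.27 (2.10, -0.73 and -0.65). For *Klf13* they were *Arl15* at 0.054, *Apc2* at 0.061 and *Fam160a1* at 0.062. The nearest probes to *Klf13* were closer than the spot error of a single ratio, and those to *Klf4* were at or beyond it except for *Dusp10*.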

How the data were processed

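Total RNA of NIH-3T3:Per2-Luc cells was labeled with Cy3 and hybridized to 4 one-color arrays on 1 slide, 1 per condition. The authors deposited, per spot, the scanner intensity of Agilent Feature Extraction 10.7.3.1 after background subtraction, and a table of the same intensity divided by 1 constant per array. Positions are those of the array annotation (mm9).

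Here the log2 of the deposited intensity was averaged over unflagged spots of each probe and taken relative to the 75th percentile of its array. Of 39429 probes 2 were left out, since all their spots were flagged on an array, and 125 to 161 spots per array were flagged. Detection asked for the well-above-background flag in 50% or more of the spots. With 1 detected array of a pair, the ratio was a bound over the higher of the dim probe and the lowest detected signal of its array. Calls used 2-fold. The test of significance that the study names needs replicates and was not repeated. On simulated data for 4 h over the control, 200 of 200 probes changed 4-fold among 39427 were recovered with 0 false calls. The simulated array was a copy of the control with noise below the spot error of a ratio and no difference between cultures. The changed probes were detected and bright, and 4-fold lies far past the 2-fold call. This checks the calculation and cannot show how often calls on the real arrays are wrong.

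Alternatives were scaling by the median, by the 75th percentile of probes detected on all arrays, by quantile normalization, by 8 spike-in controls or by nothing, no detection filter, normexp correction (offset 50, R 4.3.3 with limma 3.58.1), the flag for positive and significant signal, flagged spots kept, the deposited table, thresholds of 1.5-fold and 3-fold, and 1 probe per gene. Spike-in scaling without 1 probe was added after the data were seen. Members and lists were chosen with earlier results of these data known. The text names every member probe, up to 4 list probes per comparison past 2-fold on both arrays, largest first, and the 3 nearest genes to the highest and the lowest member. Other probes and times of a named gene, *Sp1*, *Tgfbr1*, *Dcn*, *Lum*, *S100a4*, *Tubb3*, *Rbfox3*, *Ncor1*, *Ep300* and genes without a ratio were added after their values were seen. *Klf16* was added in the same way. Python 3.11.15, numpy 2.4.6 and pandas 2.3.3 were used.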

Additional observations from a re-analysis of the deposited data

Results flagged for a closer look

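4 probes lay on opposite sides of the control at 4 h and at both later times by more than the spot error, in the main setting and under the 5 other scalings. The share of all probes that meet this rule was not counted, so their number is not a result about the family. *Klf13* is among them by both its measured probes, and all ratios use the same control array. With 1 array per time, the difference between the times was not tested. The control was of 4 h alone, so at 20 h and 32 h the pulse cannot be told apart from time in culture. *Klf4* was higher at 4 h than at 20 h by 2.88 and than at 32 h by 3.23 on the log2 scale. *Klf5* was higher at 4 h by 2.11 and 2.12. The zinc finger probe of *Klf13* differed between 4 h and 20 h by -1.67 and between 4 h and 32 h by -1.91. The BC030682 probe of *Klf13* differed by -1.36 and -1.67.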

How the results depend on the processing

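No paired analysis was possible because each condition was 1 array, and for the same reason no replicate could be left out. The median log2 ratio over the measured Krüppel-like factor probes at 4 h (0.11) was -0.25 with median scaling, -0.29 with spike-in scaling, -0.29 with spike-in scaling without 1 probe and -0.17 without scaling, and at 20 h (0.18) it was 0.51 without scaling. These scalings move all probes together: the median of all measured probes shifted at 4 h by -0.36 (median), -0.40 (spike-in) and -0.28 (no scaling), and at 20 h by 0.33 without scaling. The number of Krüppel-like factor probes 2-fold higher at 4 h (2) was 1 with median scaling and with both spike-in scalings, 4 at 1.5-fold and 1 at 3-fold. The number 2-fold lower at 4 h (1) was 3 with median scaling, both spike-in scalings and at 1.5-fold, 2 with the 75th percentile of probes detected on all arrays, quantile normalization, no scaling, no detection filter and the flag for positive and significant signal, and 0 with normexp, at 3-fold and with 1 probe per gene. The number higher at 20 h (0) was 1 without scaling, without a detection filter, with the flag for positive and significant signal and at 1.5-fold, and the number lower at 20 h (0) was 2 at 1.5-fold. The number higher at 32 h (0) was 1 without a filter and with that flag and 3 at 1.5-fold, and the number lower at 32 h (1) was 0 with spike-in scaling, without scaling and at 3-fold, and 2 at 1.5-fold. The 1 probe lower at 20 h than at 32 h was 0 with median, quantile, both spike-in scalings and no scaling, with normexp, at 3-fold and with 1 probe per gene. Of all probes past 2-fold, the share that was higher at 20 h was 29.0%, 39.1% with median, 49.95% with spike-in and 65.4% with no scaling, and at 32 h it was 44.4%, 60.2% with spike-in and 62.7% with no scaling. The cause of these moves was not tested where the setting itself does not show it. Of the values of single probes, 403 moved by less than the spot error and 59 by more, and no call turned its direction. Spots near the background limit *Klf11* and the Ensembl transcript probe of *Klf13*, whose ratio at 32 h is a bound of 0.65 on the log2 scale and was 2.80 without a detection filter.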
